A study of Mus musculus with 2 samples.

Results

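The albumin gene family of the mouse was examined through its 4 listed members, Alb (albumin), Gc (the vitamin D binding protein), Afm (afamin) and Afp (alpha-fetoprotein), among the 27998 genes counted. The members were matched by gene symbol, each symbol had a single entry, and all 4 are accounted for below. Hepatocyte preparations were made by collagenase perfusion of the liver of male C57BL/6 mice on a normal diet, for which the labels give an age of 10 to 12 weeks, and were profiled by droplet single-cell RNA-Seq with 3′ end counting. The study's methods give the strain as C57BL/6J and a somewhat younger age at surgery. The undamaged group (0 h) was liver without resection, and the PHx48h group was liver 48 h after partial hepatectomy (PHx), the surgical removal of part of the liver. Each group was 1 library from 1 preparation, so no test was possible, the variation between mice is unknown, and every difference given below is a difference between these 2 libraries. No allele or agent other than the surgery was named, and whether the undamaged mouse had a sham operation is not given in the sources used here.

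Each captured transcript molecule carried a unique molecular identifier (UMI) and a barcode of its droplet. The undamaged library held 59202 barcodes with a median of 1436 UMIs, and the PHx48h library held 1586 barcodes with a median of 6838 UMIs and a minimum of 4578. The libraries had 148 barcode sequences in common, which was 9.33% of the PHx48h barcodes and 0.25% of the undamaged ones. Barcodes of clusters without another class's markers were called hepatocyte-like and were divided by their share of mitochondrial (mt) UMIs. At 0 h there were 52184 with under 2% mt, 2248 with 2 to 30% mt and 3854 with over 30% mt. At 48 h the same bins held 504, 199 and 750 barcodes. The study kept far fewer undamaged hepatocytes after its filters than these bins hold, and whether each barcode, above all in the undamaged bin under 2% mt, is an intact hepatocyte was not tested. Remaining barcodes fell into classes named from markers, at 0 h 359 endothelial-like, 344 macrophage-like, 104 stromal-like, 51 T or NK-like, 23 B-like and 8 neutrophil-like, with 27 unnamed, and at 48 h 50 endothelial-like, 59 stromal-like and 24 macrophage-like. Levels were expressed as counts per 1000000 non-mitochondrial UMIs (CPM), with UMIs of a gene summed over the barcodes of a set. All 10 hepatocyte markers were detected in every bin, at a summed level of 42285 to 65044 CPM. The lists of 10 macrophage, 10 endothelial and 10 stromal markers summed to between 11.2 and 38.5 CPM in the bins. The 10 cholangiocyte markers summed to 24.1 to 66.5 CPM, with 4 to 9 detected. The 10 dendritic markers, which include the widely expressed Cst3, summed to 238.3 to 398.2 CPM, with 2 to 7 detected and Itgax at 0 in every bin. The 7 erythroid markers summed to 248.2 CPM under 2% mt at 0 h, 54.1 to 77.7 in the other undamaged bins and 28.2 to 32.2 at 48 h, with Slc4a1 at 0 throughout, and their part in the results was not tested. The 10 T or NK markers reached 52.9 CPM in the 2 to 30% bin at 48 h, with 8 detected, and were all at 0 in the other bins of that library. Levels below carry exact 95% Poisson intervals, and ratios exact conditional intervals. All such intervals cover counting error only.

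The family arose by duplication of an ancestral gene, and its proteins share a fold of repeated domains held by disulfide bridges. All are secreted by the liver. Albumin is the most abundant protein of plasma, sets much of its osmotic pressure and carries fatty acids, bilirubin and drugs. The vitamin D binding protein carries vitamin D metabolites and captures actin released from broken cells. Afamin binds vitamin E and stabilises lipid-modified Wnt proteins. Alpha-fetoprotein takes the place of albumin as the main plasma protein of the fetus, is shut down after birth and is used as a marker of liver cancer and of immature hepatocytes.

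The 4 genes lie on chromosome 5 (build GRCm38, GENCODE annotation). Alb (ENSMUSG00000029368) spans chr5:90460897-90476602 on the plus strand, Afp (ENSMUSG00000054932) spans chr5:90490737-90508907, and Afm (ENSMUSG00000029369) spans chr5:90518932-90553543, both also on the plus strand. No annotated gene starts and ends between them, with gaps of 14134 bases from Alb to Afp and 10024 bases from Afp to Afm. Gc (ENSMUSG00000035540) lies apart on the minus strand at chr5:89417522-89457898, 1002998 bases before Alb, with 11 annotated genes between. Alb, Afp and Afm each have 15 exons and encode 608, 605 and 608 codons, and Gc has 13 exons and 476 codons. None of the 4 shared a run of 50 bases with the annotated transcripts of another gene, so their UMIs were not split with a near-identical copy at that length. Afp is overlapped by the antisense gene Gm43449 and Afm by Gm42109 on the minus strand, the latter without an entry in the count files. Gm43449 had 82, 9 and 10 UMIs at 0 h in the bins under 2%, of 2 to 30% and over 30% mt, and 3, 2 and 5 at 48 h. The sources used here do not state whether the counting used the strand.

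The 150 bases before the RefSeq start site of each member (build GRCm38.p6) are shown because the 4 genes differ widely in level and in which core promoter letters their windows hold. Capitals mark matches on either strand to TATAAA (the TATA box) and to CCAAT (the CCAAT box, ATTGG on the other strand). The Alb window is chr5:90460720-90460869 (+), the Afp window chr5:90490564-90490713 (+), the Gc window chr5:89457899-89458048 (-) and the Afm window chr5:90518799-90518948 (+). By the GENCODE starts given above, the Alb and Afp windows end short of the gene and the Afm window runs into it. The bases between the Alb and Afp windows and those starts were not searched.
Alb: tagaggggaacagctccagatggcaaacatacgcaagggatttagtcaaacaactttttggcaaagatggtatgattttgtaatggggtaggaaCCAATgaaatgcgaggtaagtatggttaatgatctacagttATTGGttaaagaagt
Afp: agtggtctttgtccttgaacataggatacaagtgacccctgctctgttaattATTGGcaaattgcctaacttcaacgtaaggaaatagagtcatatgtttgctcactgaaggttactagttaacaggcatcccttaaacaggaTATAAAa
Gc: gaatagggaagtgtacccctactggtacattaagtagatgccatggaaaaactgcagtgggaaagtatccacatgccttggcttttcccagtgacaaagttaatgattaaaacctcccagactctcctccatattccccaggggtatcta
Afm: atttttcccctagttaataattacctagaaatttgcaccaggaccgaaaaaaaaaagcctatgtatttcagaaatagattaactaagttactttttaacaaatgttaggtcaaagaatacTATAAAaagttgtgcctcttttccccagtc
TATAAA was present in 7.57% of 32851 RefSeq promoter windows of this length and CCAAT in 24.5%, counting both strands. TATAAA matched in Afp and Afm, and CCAAT in Alb, on both strands, and in Afp. The Gc window held neither, and no matches overlapped. These matches describe letters in a window and say nothing of binding, and a link to the levels was not tested.

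Alb was the most abundant non-mitochondrial gene in every hepatocyte-like bin of both libraries. Its level at 0 h was nearly the same in the 3 bins, at 47958 CPM (47909-48006) with under 2% mt, 47506 (47298-47714) with 2 to 30% and 45021 (44847-45195) with over 30%. At 48 h the bins were far apart, at 22145 CPM (21978-22313), 33100 (32877-33324) and 52008 (51807-52209). The highest and the lowest of these 6 levels were both from the PHx48h library. Alb was therefore 2.17-fold lower at 48 h in the bin under 2% mt (2.15-2.18) and 1.44-fold lower in the bin of 2 to 30% mt (1.42-1.45). In the bin over 30% mt it was 1.16-fold higher (1.15-1.16) on non-mitochondrial UMIs, but lower with TMM scaling (log2 ratio -0.43), without the 20 most abundant genes in the total (-0.05) and with mitochondrial UMIs in the total (-0.05), so that its direction there rests on the scaling.

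**Figure D1:**
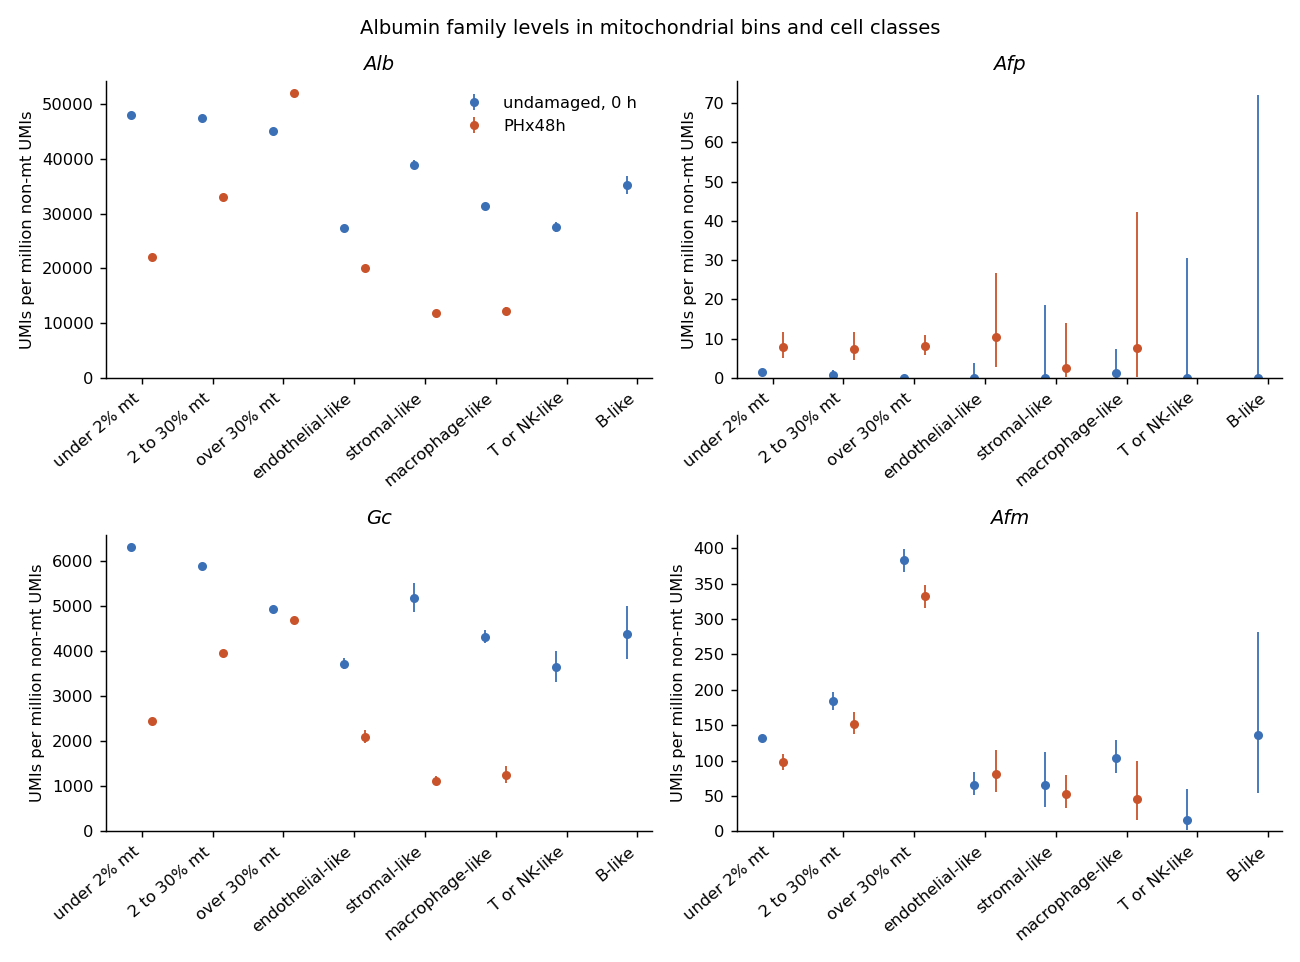
Level of each member (CPM, linear axis, a separate scale for each gene) in the 3 mitochondrial bins and in the cell classes of at least 20 barcodes, for the undamaged and the PHx48h library. Points are summed levels and bars exact 95% Poisson intervals; Alb stood at 45021 to 47958 in the 3 undamaged bins and spread from 22145 to 52008 at 48 h, and Afp was under 2 in every undamaged bin.

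Gc was the second member by level in every set. At 0 h it declined from bin to bin, from 6306 CPM (6288-6323) under 2% mt to 5884 (5811-5957) at 2 to 30% and 4936 (4879-4994) over 30%. At 48 h the order was the opposite, with 2456 (2400-2512), 3958 (3881-4036) and 4696 (4636-4757). The same direction was seen in all 3 bins, with Gc lower at 48 h by 2.57-fold (2.51-2.63), 1.49-fold (1.45-1.52) and 1.05-fold (1.03-1.07). It stood 16th, 20th and 28th among non-mitochondrial genes at 0 h and 51st, 30th and 24th at 48 h.

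Afm differed from Alb and Gc in its dependence on the mitochondrial share. At 0 h its level was 132.1 CPM (129.6-134.7) under 2% mt, 184.1 (171.4-197.5) at 2 to 30% and 382.8 (367.0-399.2) over 30%. At 48 h it was 98.05 (87.24-109.8), 152.2 (137.4-168.1) and 331.9 (316.0-348.3), again in rising order. The bin over 30% mt exceeded the bin under 2% mt by 2.90-fold (2.77-3.03) at 0 h and 3.38-fold (2.99-3.84) at 48 h. Between the libraries the differences were smaller than those of Gc in the bins up to 30% mt, with Afm lower at 48 h by 1.35-fold (1.20-1.52), 1.21-fold (1.07-1.37) and 1.15-fold (1.08-1.23). Afm had 298 to 10299 UMIs in a bin, so its intervals were wider than those of Alb.

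Afp was the rarest member and the only one with a higher level at 48 h in every bin under each of the 4 scalings tried. At 0 h it had 114 UMIs under 2% mt (1.46 CPM, 1.21-1.76), 3 UMIs at 2 to 30% (0.708, 0.146-2.07) and 0 UMIs over 30%. In that last bin the exact interval reached 0.642 CPM, and 3 counts would be 0.522 CPM. At 48 h Afp had 24 UMIs (7.90 CPM, 5.06-11.75), 19 UMIs (7.45, 4.49-11.6) and 40 UMIs (8.06, 5.76-10.97). The intervals of the undamaged and the PHx48h library did not overlap in any bin, and the 3 levels at 48 h overlapped each other. The ratio was 5.40-fold (3.32-8.44) under 2% mt and 10.5-fold (3.10-55.5) at 2 to 30% mt, and over 30% mt the level was at least 15.4-fold higher when set against 3 counts in the undamaged bin, which leaves out the counting error of the 40 UMIs; the exact interval of that ratio began at 11.99-fold. Set against albumin, there were 15.5 to 35.7 Afp UMIs per 100000 Alb UMIs in the bins at 48 h. Classes that should lack Afp had levels whose intervals overlapped those of the bins in that library, with 4 UMIs (10.47 CPM, 2.853-26.81) in the endothelial-like, 1 UMI (7.585, 0.192-42.26) in the macrophage-like and 1 UMI (2.504, 0.0634-13.95) in the stromal-like class. At 0 h the endothelial-like class had 0 Afp UMIs, which allows up to 3.817 CPM, and the macrophage-like class had 1. Per 100000 Alb UMIs the endothelial-like class at 48 h held 52.25 (14.23-133.8), an interval that overlapped those of the bins. That class rests on 4 Afp UMIs and also held hepatocyte markers at 25926 CPM. It therefore cannot show whether the Afp level of the bins was above background.

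Afp UMIs were scattered over barcodes and mostly single. At 0 h under 2% mt, 111 barcodes had an Afp UMI, 108 of them 1 UMI and 3 of them 2. At 48 h over 30% mt, 32 of 750 barcodes had one, 27 with 1 UMI, 2 with 2 and 3 with 3 UMIs or more, while all 24 and 19 barcodes of the other bins had 1. Thinned to 500 non-mitochondrial UMIs per barcode, the share with an Afp UMI was 0.0747% (0.0532-0.102, exact binomial) at 0 h under 2% mt. Over 30% mt it was 0 of 3779, which allows up to 0.0976% (75 shallower barcodes left out). At 48 h it was 0.397% (0.0481-1.43) under 2% mt, 0 of 199 at 2 to 30%, which allows up to 1.84%, and 0.4% (0.0826-1.16) over 30%. In the bins under 2% and over 30% mt these intervals overlapped those at 0 h. Without thinning the shares were 0.213%, 0.134% and 0 at 0 h, and 4.76%, 9.55% and 4.27% at 48 h, where the median depth of the bins was 4298 to 5935 non-mitochondrial UMIs against 1214 to 1514 at 0 h. In the endothelial-like class, which should lack Afp but held hepatocyte markers, 1 of 50 thinned barcodes at 48 h had a UMI (2%, 0.0506-10.65). The thinned shares at 48 h therefore cannot be told apart from that of this class, and how far they are background was not tested. Thinned to 1000 UMIs in a separate random draw, the shares under 2% mt were 0.153% (0.122-0.191) at 0 h and 0 of 504 at 48 h. The latter allows up to 0.729%, so no order of the libraries is shown there. Over 30% mt they were 0 of 2460 at 0 h and 1.21% (0.553-2.28) at 48 h. In the bin over 30% mt at 48 h, barcodes with an Afp UMI had a median of 6412 non-mitochondrial UMIs against 4130 in the rest. Their summed Alb (53293 against 51928 CPM), Gc (4491 against 4709) and Afm (324.7 against 332.3) differed little, as did the periportal share of zonal UMIs (69.2% against 67.9%), and the summed level of 20 proliferation genes was 2397 against 1953 CPM. Under 2% mt at 48 h the proliferation sum went the other way, at 2752 with and 3068 CPM without an Afp UMI. At 2 to 30% mt at 48 h it was 2615 against 2228 CPM, Alb 37151 against 32206 and Gc 4259 against 3892, at a median depth of 15677 against 5616.

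The libraries differed across all genes, and the members are read against that. Among the genes that reached 10 CPM in 1 of the libraries or both, 25.7% were at least 2-fold higher and 21.6% at least 2-fold lower at 48 h in the bin under 2% mt (6358 genes), 28.0% and 7.51% in the bin of 2 to 30% mt (7045 genes), and 30.9% and 5.38% in the bin over 30% mt (7416 genes). Among the members, Alb and Gc were at least 2-fold lower in the bin under 2% mt and in no other bin, and Afm in none. Afp stayed under 10 CPM in every bin and was not among the genes compared. The median log2 ratio of those genes was 0.09, 0.48 and 0.57 in the 3 bins. Relative to this median, Alb stood at -1.20, -1.003 and -0.36, Gc at -1.45, -1.05 and -0.64, and Afm at -0.51, -0.76 and -0.78. With TMM scaling the median lay at -0.20, -0.16 and -0.04, and the log2 ratios themselves at -1.42, -1.20 and -0.43 for Alb, -1.66, -1.25 and -0.71 for Gc, and -0.72, -0.94 and -0.84 for Afm. A scaling moves every gene alike, so the values relative to the median are by construction almost the same under any of them. Those of Alb and Gc were nearer to 0 at higher mt shares, and those of Afm were not.

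A finer division by mitochondrial share showed where the bins came from. At 0 h Alb was 47968 CPM at under 1% mt, stayed between 46057 and 50022 in the steps up to 40%, and was lower beyond, at 39296 for 50 to 60% and 31977 for 60 to 70%. At 48 h it was 21655 at under 1% mt, 33764 at 10 to 20%, 56732 at 50 to 60% and 38483 above 70%. The 2 libraries crossed between 30 and 50% mt. Gc at 0 h was lower towards high mt shares, with 6314 CPM at under 1%, 5381 at 20 to 30% and 3968 at 60 to 70%, whereas at 48 h it was 2432 at under 1% and 4977 at 50 to 60%. Afm was higher at high mt shares in both libraries, with 132.8 CPM under 1% and 404.9 at 50 to 60% mt at 0 h, and 96.09 and 375.9 CPM at 48 h. At 50 to 60% mt the Afm intervals of the 2 libraries overlapped (371.0-441.2 and 345.7-408.0). Only 18 undamaged barcodes lay above 70% mt.

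**Figure D2:**
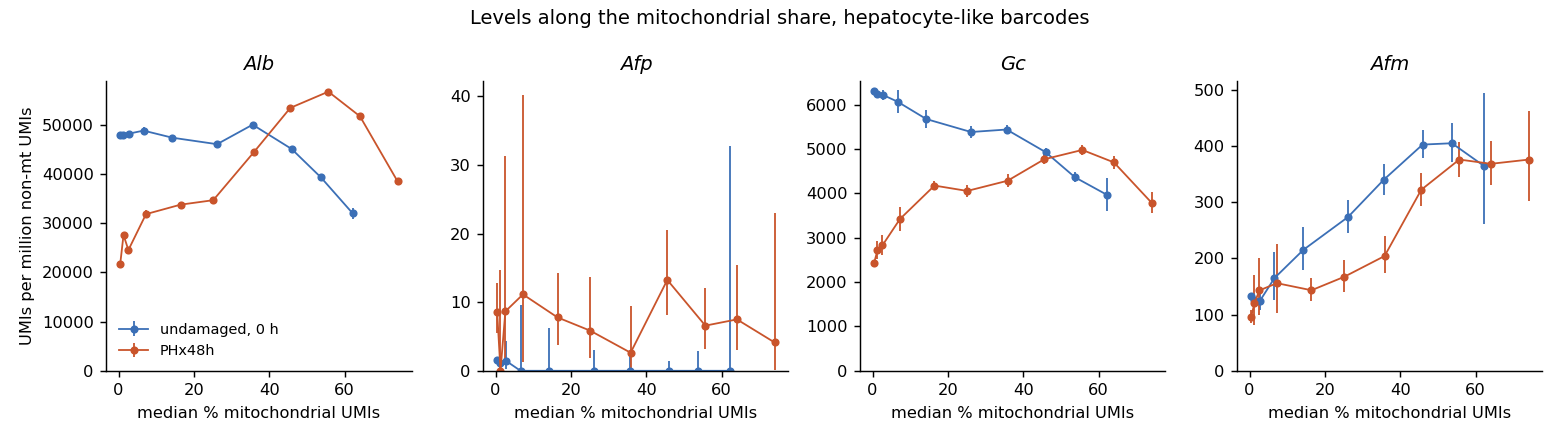
Summed level of each member (CPM, linear axes) in steps of the mitochondrial share, placed at the median share of each step, for hepatocyte-like barcodes of both libraries with exact 95% Poisson intervals. The undamaged step above 70% mt (18 barcodes) is left out; Afm was higher at 50 to 60% than under 1% mt in both libraries (404.9 against 132.8 at 0 h, 375.9 against 96.09 at 48 h), and Alb and Gc were so at 48 h alone.

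UMIs of Alb, Gc and Afm were also present in every class named from non-hepatocyte markers, whereas Afp was at 0 UMIs in all of these classes at 0 h but the macrophage-like. At 0 h Alb was at 27303 CPM (26974-27634) in endothelial-like, 31478 (31083-31876) in macrophage-like, 38940 (38076-39819) in stromal-like, 27554 (26626-28506) in T or NK-like and 35147 (33542-36809) in B-like barcodes. At 48 h it was 20042 (19595-20496) in endothelial-like, 12272 (11681-12885) in macrophage-like and 11828 (11493-12170) in stromal-like barcodes. The endothelial-like sum was carried by part of its barcodes, since the median Alb share of a barcode was 1.04% in that class, with a 95th percentile of 4.38%, and 1.10% in both macrophage-like and stromal-like barcodes. Alb was the most abundant or the second most abundant non-mitochondrial gene in all of these classes. In the order of the 15 sets of at least 20 barcodes, neighbouring Alb intervals overlapped for the T or NK-like and endothelial-like classes at 0 h and for the macrophage-like and stromal-like classes at 48 h, and for no other neighbours. Thinned to 500 UMIs, Gc was detected in 81.6% (77.2-85.5) of endothelial-like and 95.2% (94.99-95.36) of hepatocyte-like barcodes under 2% mt at 0 h, at median depths of 2307 and 1412. At 48 h these shares were 60% (45.2-73.6) and 73.8% (69.7-77.6). RNA free in the droplet medium gives UMIs to barcodes of every class, and its part in these levels was not tested.

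Gc and Afm were also set against Alb within each set. Gc per 100 Alb UMIs at 0 h was 13.15 (13.11-13.19) in the bin under 2% mt, and 13.63 (13.16-14.12), 13.75 (13.25-14.25), 13.31 (12.46-14.20) and 13.23 (11.95-14.61) in endothelial-like, macrophage-like, stromal-like and T or NK-like barcodes. It was lower in the bins of 2 to 30% mt (12.4, 12.2-12.6) and over 30% mt (10.96, 10.83-11.10). Afm per 1000 Alb UMIs at 0 h was 2.76 (2.70-2.81) under 2% mt, 2.43 (1.87-3.10) in endothelial-like and 3.29 (2.61-4.10) in macrophage-like barcodes, and 8.50 (8.15-8.87) over 30% mt. In the undamaged library both endothelial-like ratios overlapped those of the bin under 2% mt and not those of the bin over 30% mt. The stromal-like and B-like classes also overlapped the bin under 2% mt in both ratios. The macrophage-like and T or NK-like classes departed from that bin in 1 ratio each. Macrophage-like Gc lay just above it and T or NK-like Afm below it, at 0.601 (0.0728-2.17) from 2 UMIs. At 48 h Gc per 100 Alb UMIs was 11.1 (10.8-11.4), 12.0 (11.7-12.2) and 9.03 (8.91-9.15) in the 3 bins in order of mt share, and Afm per 1000 Alb UMIs was 4.43 (3.94-4.96), 4.60 (4.15-5.08) and 6.38 (6.08-6.70). The endothelial-like class of that library was at 10.5 (9.75-11.3) and 4.05 (2.75-5.75). Its macrophage-like class was at 10.2 (8.64-11.98) and 3.71 (1.36-8.09), and its stromal-like class at 9.53 (8.63-10.5) and 4.45 (2.75-6.80). Stromal-like Gc at 48 h thus overlapped the bin over 30% mt and not the bin under 2% mt.

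**Figure D3:**
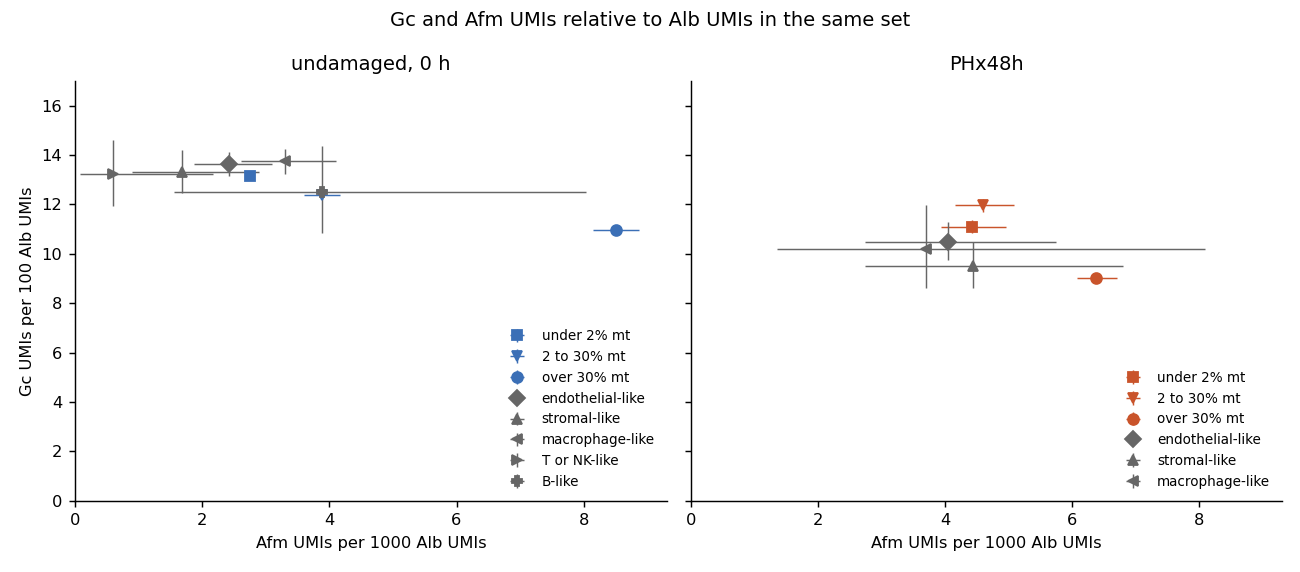
Gc UMIs per 100 Alb UMIs (vertical axis) against Afm UMIs per 1000 Alb UMIs (horizontal axis) for each set of at least 20 barcodes, with exact 95% intervals on both, at 0 h and 48 h. In both libraries the bin over 30% mt lay at the lower right, at 8.50 Afm and 10.96 Gc at 0 h and at 6.38 Afm and 9.03 Gc at 48 h.

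Within hepatocyte-like barcodes, the position along the portal to central axis of the lobule was read from 10 periportal and 10 perivenous genes, and each bin was split into 3 parts of equal number by the periportal share of these UMIs. Albumin synthesis is known to be higher towards the portal end. Over 30% mt at 0 h the periportal share was 15.5%, 54.9% and 80.6% in the parts, and Alb was 23989 CPM (23754-24226), 51737 (51433-52042) and 55546 (55216-55878) from perivenous to periportal. Gc was 4188, 5329 and 5141 CPM in the same order, and Afm was 291.2 (265.8-318.3), 393.4 (367.3-420.9) and 449.3 (420.1-480.1). At 48 h over 30% mt Alb was 36524, 53863 and 58870 CPM, Gc was 3672, 4688 and 5237, and Afm was 282.4 (253.0-314.3), 336.2 (307.6-366.8) and 354.8 (330.7-380.2). The perivenous part had the lowest level of each of these members in both libraries. Afp at 48 h was 7.59, 10.6 and 6.61 CPM in the parts, with overlapping intervals.

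In the bin under 2% mt at 0 h the parts had nearly the same Alb level, at 47962, 47973 and 47938 CPM, with overlapping intervals. The periportal share was 31.1%, 40.4% and 50.02%. At median depths of 1408 to 1419 non-mitochondrial UMIs the share of a single barcode carried counting error. The undamaged parts over 30% mt were no deeper, at medians of 1141 to 1328, and had the wider split given above. How far counting error alone set the split under 2% mt was not tested, so the parts of that bin cannot show whether a gradient was present. Gc was 6336, 6293 and 6289 CPM and Afm 127.6, 135.8 and 132.9 CPM. At 48 h Alb was 23972, 24921 and 18346 CPM under 2% mt, lowest in the periportal part, opposite to the order over 30% mt. In the bin of 2 to 30% mt Alb was 41292, 48350 and 52897 CPM at 0 h and 26169, 31285 and 39148 CPM at 48 h, in the order seen over 30% mt.

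**Figure D4:**
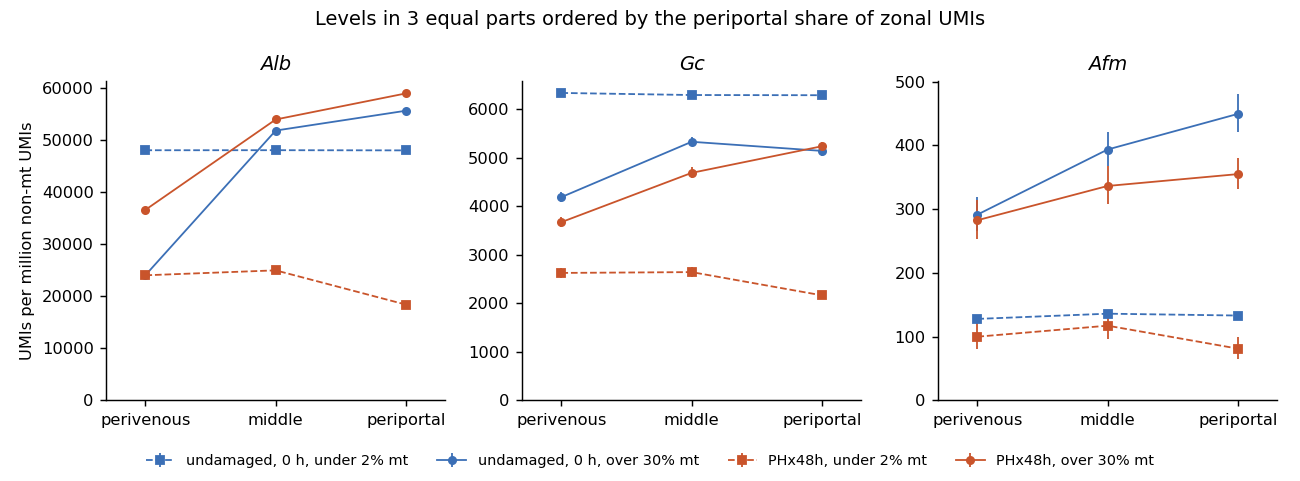
Level of Alb, Gc and Afm (CPM, linear axes) in 3 parts of equal barcode number ordered by the periportal share of zonal UMIs, for the bins under 2% mt (squares, dashed) and over 30% mt (circles, solid) of both libraries, with exact 95% Poisson intervals. Alb over 30% mt at 0 h went from 23989 in the perivenous part to 55546 in the periportal part, and Alb under 2% mt at 0 h stayed between 47938 and 47973.

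Barcodes with many proliferation UMIs were set against the others of their bin, since regenerating hepatocytes divide while they maintain plasma proteins. Over 30% mt at 48 h, the 75 barcodes with the highest share of 20 proliferation genes (5171 against 1439 CPM) had Alb at 43732 CPM against 53409 in the other 675, Gc at 3984 against 4817 and Afm at 276.9 against 341.1. Afp was 8.35 against 8.01 CPM. The 75 barcodes were also deeper, with a median of 6994 against 4171 non-mitochondrial UMIs, and the part of depth was not tested. Under 2% mt Alb was 16342 against 22961 CPM, the same direction. At 2 to 30% mt the direction was the opposite, with Alb at 37960 CPM in 19 barcodes against 32219 in the other 180. Over 30% mt at 0 h, where the 385 barcodes reached 1000 CPM on the list, Alb was 39539 against 45542 CPM. At their median depth of 1222 non-mitochondrial UMIs that level stands for few UMIs per barcode, and whether these barcodes were dividing was not tested.

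The spread of single barcodes differed between bins and libraries. The Alb share of a barcode's non-mitochondrial UMIs under 2% mt at 0 h had a median of 4.80% and ran from 3.81% at the 5th to 5.83% at the 95th percentile. Its variance was 1.30 times the variance of UMI sampling at those depths. Over 30% mt at 0 h the range was 1.39% to 7.27% around a median of 4.15%, and the variance was 12.7 times sampling. At 48 h the medians were 2.57%, 2.83% and 4.61% in order of mt share, with 5th to 95th percentiles of 1.01% to 3.15%, 1.49% to 5.22% and 2.43% to 7.94%. In relation to its median the range over 30% mt was thus not wider at 48 h than at 0 h. The variances at 48 h were 15.7, 86.6 and 39.9 times sampling. Gc varied less, at 1.20, 1.35 and 1.31 times sampling at 0 h and 1.77, 5.66 and 3.59 times at 48 h. The ratio grows with depth for the same biological spread, and the PHx48h barcodes were deeper. Across barcodes, the Spearman correlation of the Alb and Gc shares was 0.06, 0.11 and 0.25 at 0 h (52184, 2248 and 3854 barcodes) and 0.44, 0.53 and 0.59 at 48 h (504, 199 and 750 barcodes), a description of barcodes that share a library and its depth. A single deep barcode held 5121 of the 84401 Alb UMIs in the 2 to 30% bin at 48 h, and without it Alb there was 31996, Gc 3890 and Afm 148.9 CPM.

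**Figure D5:**
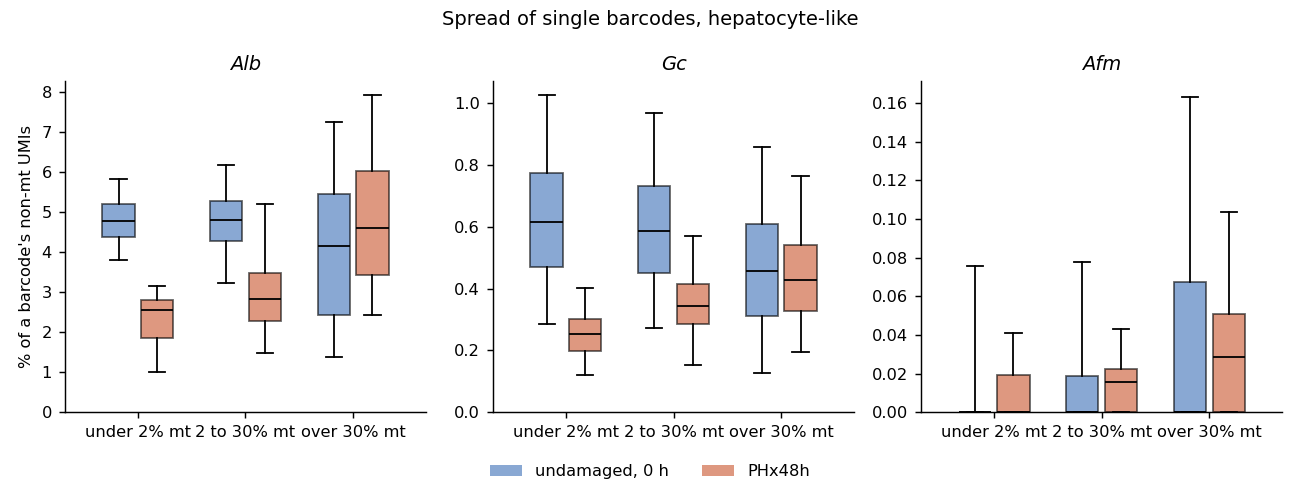
Share of Alb, Gc and Afm among the non-mitochondrial UMIs of single hepatocyte-like barcodes (percent, linear axes) in each mitochondrial bin and library. Boxes span the 25th to 75th percentile with the median as a line, and whiskers the 5th to 95th; of the 6 Alb boxes, that under 2% mt at 0 h is the narrowest in relation to its median of 4.80%.

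The genes most like each member were taken by Pearson correlation of log2(CPM + 1) over the 14 named sets of at least 20 barcodes in both libraries, among 11625 genes, as a description of sets that share 2 libraries. For Alb these were Serpind1 (0.98), Trf, Pzp, Gjb2 and Fgb, and for Gc they were Serpind1 (0.99), Scd1, C4bp, Slc38a4 and Dgat2. For Afm they included Slc25a47 (0.91), Spp2, Gckr and Plk3. For Afp they were Usp2 (0.94), Gstm3, Ccnb1, Cdc45 and Poc1a. Afp reached 10 CPM only in the endothelial-like class at 48 h (10.47 CPM from 4 UMIs) and had 0 UMIs in most undamaged sets. All of its levels at 48 h lay above all of those at 0 h. The part of counting error and of the difference between the libraries in its correlations was not tested. Alb and Gc correlated at 0.97 over the sets, Alb and Afm at 0.64, Gc and Afm at 0.49, and Alb and Afp at -0.38.

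Transcription factors known to act on Alb or Afp were read as the regulators upstream of the members. Of 18 listed, 16 had at least 10 CPM in either library at 2 to 30% mt, of which 5 were at least 2-fold higher and 2 at least 2-fold lower, where 28.0% and 7.51% of all genes were, with a median log2 ratio of 0.75 beside 0.48 for all genes. In the bin over 30% mt 6 of 17 were higher and 1 lower (30.9% and 5.38% of all genes), and in the bin under 2% mt 1 of 15 was higher and 3 lower (25.7% and 21.6%). Most of these counts were near the shares over all genes. At 2 to 30% mt the highest ratios were those of Dbp, a clock-driven activator first found on the albumin promoter (8.97 CPM at 0 h and 92.2 at 48 h, log2 ratio 3.22), and Trp53, the p53 tumour suppressor and a repressor of Afp (5.67 and 16.5, 1.39). The lowest were those of Onecut1, a liver transcription factor (24.1 and 9.41, -1.27), and Foxa2, a pioneer factor of liver enhancers (64.5 and 30.2, -1.07). Over 30% mt Dbp was 14.6 and 87.2 CPM and Onecut1 40.4 and 9.87 CPM. Of the postnatal repressors of Afp, Zhx2 was 3.78 and 3.92 CPM and Zbtb20 276.0 and 453.7 CPM at 2 to 30% mt. Zhx2 and Zbtb20 were named after their values were seen.

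Of 14 fetal genes that, like Afp, are switched down after birth, 3 had at least 10 CPM in either library at 2 to 30% mt, of which 2 were at least 2-fold higher and 1 at least 2-fold lower at 48 h (28.0% and 7.51% of all genes). Ly6d, a surface protein that is also on the list of 10 B cell markers, was 0.944 CPM at 0 h (4 UMIs) and 47.1 at 48 h, where 2 of those 10 markers were detected. Spink1, a trypsin inhibitor, was 0.472 CPM (2 UMIs) and 20.8 CPM (53 UMIs). Lpl, the lipoprotein lipase, was 49.6 and 16.9 CPM. H19 and Gpc3 had 0 UMIs in this bin in both libraries. Over 30% mt 4 of the 14 were compared, of which 2 were at least 2-fold higher and 1 at least 2-fold lower (30.9% and 5.38% of all genes).

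Of 14 genes of vitamin D and albumin handling, 8 were compared at 2 to 30% mt, of which 1 was at least 2-fold higher and 3 at least 2-fold lower at 48 h (28.0% and 7.51% of all genes), with a median log2 ratio of -0.31. Amn, a subunit of the endocytic receptor for the vitamin D binding protein and albumin in kidney, had 1 UMI at 0 h (0.236 CPM) and 42 at 48 h (16.5 CPM), while Cubn, its partner, was at 0 in both. The nuclear receptor Rxra, partner of the vitamin D receptor, was 79.1 and 147.1 CPM (log2 ratio 0.89). Cyp27a1, a mitochondrial sterol and vitamin D hydroxylase, was 417.6 and 133.3 CPM (-1.64), and B2m, the light chain of the neonatal Fc receptor and of MHC class I, was 4643 and 1866 CPM (-1.31). Fcgrt, the heavy chain of the receptor that rescues albumin from breakdown, was 198.3 and 91.0 CPM (-1.12) and was named after its values were seen.

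Of 25 other carrier proteins of plasma, 24 were compared at 2 to 30% mt, of which 4 were at least 2-fold higher and 2 at least 2-fold lower at 48 h (28.0% and 7.51% of all genes), with a median log2 ratio of -0.05. In the bin under 2% mt 4 were higher and 7 lower (25.7% and 21.6% of all genes), with a median of -0.51. In the bin over 30% mt 3 were higher and 3 lower (30.9% and 5.38% of all genes), with a median of -0.25. The highest ratios at 2 to 30% mt were those of the lipid carrier Apoa4 (57.1 CPM at 0 h and 1278 at 48 h, log2 ratio 4.46) and the acute phase glycoprotein Orm2 (25.7 and 420.0, 3.98). The lowest were those of Apoh, a phospholipid-binding glycoprotein (3206 and 1093, -1.55), and Igfbp2, a carrier of insulin-like growth factors (1253 and 428.3, -1.55). The median of these carriers lay above the log2 ratios of Alb (-0.52) and Gc (-0.57) in that bin, as did the median of all genes. Under 2% mt the carrier median also lay above Alb (-1.115) and Gc (-1.36). Over 30% mt it lay below Alb (0.208) and Gc (-0.072).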

How the data were processed

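The authors counted reads of 10x Genomics 3′ v2 libraries with Cell Ranger (version not given in the sources used here; build mm10 per the submitters' processing notes) and deposited raw UMI counts per gene and barcode, as whole numbers without normalization. Their methods name filters on mitochondrial content and doublets without thresholds, and neither filter was applied to the barcodes used here.

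From these counts, barcodes of each library were clustered by the Leiden method (Scanpy 1.11.5, resolution 1, 2000 variable genes, 30 components, 15 neighbours) on non-mitochondrial UMIs of all genes but the 4 members. To receive the name of another class, a cluster had to hold 3 markers or more detected in at least 20% of its barcodes at 3 times the level of the rest or more, with 5 CPM added. Clusters holding other classes' markers were divided once more at resolution 0.5, a step and naming order settled after the data were seen, and 1 cluster of 27 undamaged barcodes, led by Cd74 and Lyz2, stayed unnamed. At 48 h 37 of the 59 stromal-like barcodes were in a subcluster that also passed the 10 endothelial markers. Of the 50 endothelial-like barcodes, 37 were in a subcluster that passed 8 macrophage markers. At 0 h endothelial-like subclusters of 55 and 62 barcodes passed 8 stromal and 9 macrophage markers. Scrublet called 0 of 59202 undamaged and 6 of 1586 PHx48h barcodes, so it did not work at 0 h and no barcode was removed.

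UMIs were summed per set and divided by the set's non-mitochondrial UMIs (13 mitochondrial genes left out). Log2 ratios used 1 CPM added to both libraries, and genes at 10 CPM or more in either library were compared at a 2-fold limit. TMM factors came from edgeR 4.0.16. In this 3′ assay a molecule is counted once whatever its length, so levels of different genes were not divided by length. Shares of barcodes were thinned to 500 UMIs. With 1 library per group no test was run. The members and lists were chosen with earlier results of these data known. In each list the 2 highest and 2 lowest ratios of the 2 to 30% bin were named, and for each member the 5 genes most like it. A gene that these rules would name is not reported here. The exact intervals were checked on simulated counts. Coordinates came from GENCODE M21 and promoter sequences from RefSeq (GRCm38.p6), where all 4 members matched.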

Additional observations from a re-analysis of the deposited data

Results flagged for a closer look

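The log2 ratio of Alb at 48 h over 0 h differed in sign between the mitochondrial bins, at 0.21 in barcodes with over 30% mt UMIs, -0.52 at 2 to 30% mt and -1.11 under 2% mt. With 1 library per group the difference between bins was not tested. With TMM scaling the ratio in the bin over 30% mt was -0.43, so that the bins then had the same sign and kept their order. Barcodes of the bins also differed in depth, with median non-mitochondrial UMIs of 1214, 1514 and 1412 at 0 h and 4298, 5935 and 5276 at 48 h, and the part of depth was not tested.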

How the results depend on the processing

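In the bin of 2 to 30% mt, all 4 members kept the sign of their log2 ratio under each alternative tried. With an upper mt limit of 20%, however, Afm hardly differed between the libraries (-0.022). Values moved for Alb, Gc and Afm with TMM scaling (-1.20, -1.25 and -0.94), without the 20 most abundant genes (-0.75, -0.80 and -0.50), among barcodes with at least 25% of the depth of the 30th deepest (-0.40, -0.36 and -0.78; 383 and 59 barcodes), with an upper mt limit of 20% (-0.57, -0.64 and -0.022) and with a lower mt limit of 5% (-0.47, -0.45 and -0.64). Those of Alb and Gc also moved with mt UMIs in the total (-0.61 and -0.66), as the mean of single barcodes (-0.68 and -0.78) and with every barcode of the bin (-0.58 and -0.66). Afp moved to 0.70 with 10 CPM added. Over 30% mt, in alternatives chosen after seeing the data, Alb reversed with TMM scaling (-0.43), without the 20 most abundant genes (-0.046) and with mt UMIs in the total (-0.054). In all, 22 values for the 2 to 30% bin moved by more than counting error and 34 did not, and of the other values 92 moved, 3 reversed and 134 did neither. Apart from the scalings, whose totals differ by construction, the cause was not tested. Leaving out a library was not possible, and no paired analysis was possible because each group had 1 library. Above 2% mt the Afp ratios rest on 0 to 3 UMIs at 0 h, among 4235818 and 5749039 non-mitochondrial UMIs.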
